A study of Mus musculus with 43 samples.

Results

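The mitochondrial ribosomal protein genes are nuclear genes for the protein subunits of the mitochondrial ribosome. They were taken as every gene of the count table whose symbol began with Mrpl or Mrps followed by a number and carried no pseudogene suffix. This gave 78 of 54532 genes, spread over 17 chromosomes, and left out 5 pseudogene symbols. Of the members, 26 encode proteins of the small subunit, 51 encode proteins of the large subunit, and Mrps36, now known as a component of the 2-oxoglutarate dehydrogenase complex, was placed in neither. Mrps30 and Mrps18a, despite their names, were counted with the large subunit, where both proteins sit. By the family's known homology, 47 members have a bacterial counterpart and 31 do not.

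The mitochondrial ribosome translates the few mRNAs that are transcribed from mitochondrial DNA, all of which encode subunits of the respiratory chain and of the ATP synthase. Its rRNAs come from mitochondrial DNA, whereas all of its proteins are translated in the cytosol and imported. Brain endothelial cells (EC) line the vessels of the blood-brain barrier and have long been described as rich in mitochondria.

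The RNA came from EC sorted as CD45-, CD11b- and CD31+ cells from the cortex or hippocampus of mice aged 2 months, and no treatment or transgene was given. The 43 libraries covered the long-inbred strains A/J, NOD/ShiLtJ, C57BL/6J, 129S1/SvImJ and DBA/2J (31 libraries) and the recently wild-derived strains CAST/EiJ and WSB/EiJ (12 libraries). There were 16 female and 27 male libraries, 21 from cortex and 22 from hippocampus. Each title also carried the tag high (29 libraries) or low (14 libraries), whose meaning the labels do not state. The males held 1 library of every strain, region and tag except 129S1/SvImJ cortex low, so tags and strains were compared among males, and the sexes were not compared. The labels do not name the mouse behind a library, so the p-values below measure only the spread between these libraries, which may be technical.

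Levels are given as CPM, the counts of a gene in a library scaled to a common total, with the trimmed mean of M values (TMM) as scaling factor. Libraries held between 1626534 and 49372356 counts, and the male libraries between 1626534 and 10567966. The rRNA-like genes, Gm42418 among them, took 1.59% to 29.3% of the counts. The 18 endothelial markers summed to at least 16571 CPM in every male library, and no marker of the list was at 0 everywhere, while neuronal markers summed to between 320 and 1483 CPM and astrocyte markers to between 1480 and 19671 CPM in males. In such bulk samples, fewer cells of a type and less RNA per cell cannot be told apart. 

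The promoters of the family are shown for 6 members on which the results below turn or which carry the motifs most clearly. RefSeq entries (GRCm38.p6, 250 bases before to 50 after the start) matched 69 of the 78 members and gave 75 windows. The 4 motifs were searched on both strands because they are known elements of genes for mitochondrial proteins or of core promoters, and a match here is only a match of letters. Capitals mark every match in the windows below, each written 5′ to 3′ on the strand of the gene. Mrpl52 had the highest level per length, Mrps24 and Mrps26 had the smallest p-value of the family in DBA/2J and CAST/EiJ, Mrpl36 was near 0 in WSB/EiJ, Mrps11 starts head to head with Mrpl46, and Mrpl32 carries overlapping copies of GCGCATGCG.
Mrpl52 chr14:54426659-54426958 (+): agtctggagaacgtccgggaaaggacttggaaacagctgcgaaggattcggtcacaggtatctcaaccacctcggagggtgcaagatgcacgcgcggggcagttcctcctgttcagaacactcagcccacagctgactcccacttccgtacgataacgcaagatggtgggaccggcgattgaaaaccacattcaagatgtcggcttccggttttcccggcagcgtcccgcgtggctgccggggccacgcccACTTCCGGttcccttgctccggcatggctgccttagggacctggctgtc
Mrps24 chr11:5707652-5707951 (-): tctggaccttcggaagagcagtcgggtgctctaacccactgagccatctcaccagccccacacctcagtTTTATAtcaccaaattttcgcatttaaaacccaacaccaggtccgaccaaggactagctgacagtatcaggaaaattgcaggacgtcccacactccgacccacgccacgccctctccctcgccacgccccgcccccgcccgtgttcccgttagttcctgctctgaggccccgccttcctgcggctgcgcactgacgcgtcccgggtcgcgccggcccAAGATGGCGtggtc
Mrps26 chr2:130563507-130563806 (+): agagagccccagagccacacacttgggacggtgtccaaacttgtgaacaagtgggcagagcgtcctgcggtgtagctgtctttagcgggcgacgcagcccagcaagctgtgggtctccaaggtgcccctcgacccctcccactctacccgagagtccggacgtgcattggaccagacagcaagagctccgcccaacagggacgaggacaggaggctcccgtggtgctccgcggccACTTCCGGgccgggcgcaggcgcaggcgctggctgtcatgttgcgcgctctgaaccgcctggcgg
Mrpl36 chr13:73330759-73331058 (+): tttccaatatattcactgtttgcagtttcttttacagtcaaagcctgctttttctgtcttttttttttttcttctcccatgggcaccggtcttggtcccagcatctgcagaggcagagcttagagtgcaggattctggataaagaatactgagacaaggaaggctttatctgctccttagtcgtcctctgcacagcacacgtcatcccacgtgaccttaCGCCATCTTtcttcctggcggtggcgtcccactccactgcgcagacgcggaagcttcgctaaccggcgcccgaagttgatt
Mrps11 chr7:78782881-78783180 (+): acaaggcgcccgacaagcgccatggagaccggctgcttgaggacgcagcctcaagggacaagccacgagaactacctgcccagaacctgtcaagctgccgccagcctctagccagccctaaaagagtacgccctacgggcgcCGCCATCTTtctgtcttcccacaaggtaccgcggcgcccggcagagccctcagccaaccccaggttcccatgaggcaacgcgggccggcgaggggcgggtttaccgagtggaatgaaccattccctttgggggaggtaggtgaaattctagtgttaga
Mrpl32 chr13:14612988-14613287 (-): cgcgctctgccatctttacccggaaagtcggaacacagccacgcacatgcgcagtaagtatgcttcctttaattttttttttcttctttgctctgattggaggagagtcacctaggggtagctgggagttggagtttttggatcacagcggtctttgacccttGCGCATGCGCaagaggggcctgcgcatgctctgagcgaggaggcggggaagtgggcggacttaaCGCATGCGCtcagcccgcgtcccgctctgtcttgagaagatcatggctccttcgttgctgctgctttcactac

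GCGCATGCG, the element bound by NRF1, lay in 9.33% of the 75 member windows and in 1.75% of all 32851 promoter windows of the same length. CCGGAAGT, an element of ETS factors such as GABPA, lay in 16% of the member windows and in 3.89% of all windows. AAGATGGCG, the element of YY1, lay in 10.7% and 1.4%. TATAAA, the TATA box, went the other way, with 6.67% of the member windows and 13.6% of all. Of the 69 members with a window, 40 held none of the 4 motifs, 27 held 1 of them, and Mrps24 and Mrps27 held more. The member windows had a median GC content of 58.7% against 52.7% over all windows, and a median of 21 CpG against 7. No test was made of these shares, and against protein-coding promoters alone the comparison shares were 2.35%, 5.15%, 1.83% and 12.6% in the same order.

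The members also often began beside another gene. A protein-coding gene on the opposite strand started within 1 kb of 33 of the 78 members (42.3%), whereas 2384 of all 21951 protein-coding genes (10.9%) had such a neighbour. Mrpl46 and Mrps11, on chromosome 7, form such a pair within the family, with starts 412 bp apart. Mrpl36 starts 29 bp from Ndufs6, a gene of respiratory complex I, which it overlaps on the other strand, and Mrpl54 starts 26 bp from Apba3. These distances use the outermost annotated start of each gene in GENCODE. For Mrpl36 that start lies upstream of the RefSeq start of the window printed above, for which the 29 bp does not hold. The source gave no strand setting for the counting, so reads of 36 members that overlap a gene on the other strand could not be told from reads of that gene with certainty. A further limit is that 13 members overlap a gene on the same strand, Mrps24 with Urgcp among them. Another 1 is that 24 members share at least 300 bases at 90% identity or more with a gene elsewhere. The counts of all these members are uncertain.

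The 78 genes of the family together took between 0.0432% and 0.191% of the counts of a library, with a median of 0.0917%. Per kb of exon, the median member had 4.07 CPM. The median was 2.08 CPM per kb for all 17644 protein-coding genes past the filter, 3.06 CPM per kb for the 8180 of them in the members' range of mean CPM, and 46.3 CPM per kb for the genes of the cytosolic ribosome, the machine for nuclear mRNAs. The small and large subunits did not stand apart in this, with medians of 3.75 and 4.24 CPM per kb.

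Mrpl52, a large-subunit protein with no bacterial counterpart, had the highest level per length, 17.9 ± 17.1 CPM per kb (SD, n = 43). Mrps21, the counterpart of bacterial S21, followed with 15.8 ± 21.3 CPM per kb, and Mrpl12, the counterpart of the L12 stalk protein, with 13.3 ± 11.3 CPM per kb. Mrps24 had 12.7 ± 9.48 and Mrpl18, which is also known to carry 5S rRNA into mitochondria, had 12.3 ± 13.1 CPM per kb. Neighbours in this order differed by far less than their SD over libraries. At the low end, Mrpl23 had 0.977 ± 1.23 CPM per kb, Mrpl33 had 1.04 ± 1.21 and Mrpl47 had 1.35 ± 1.28. The length used merges all annotated exons, 4883 bases for Mrpl23 and 7326 for Mrpl33. Their longest protein-coding transcripts hold only 736 and 478 bases, so the low places of these 2 genes depend on that choice of length. Mrpl53 was at 0 in all 43 libraries, and it shares its locus with Gm42688 on the same strand and Ccdc142os on the other.

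**Figure D1:**
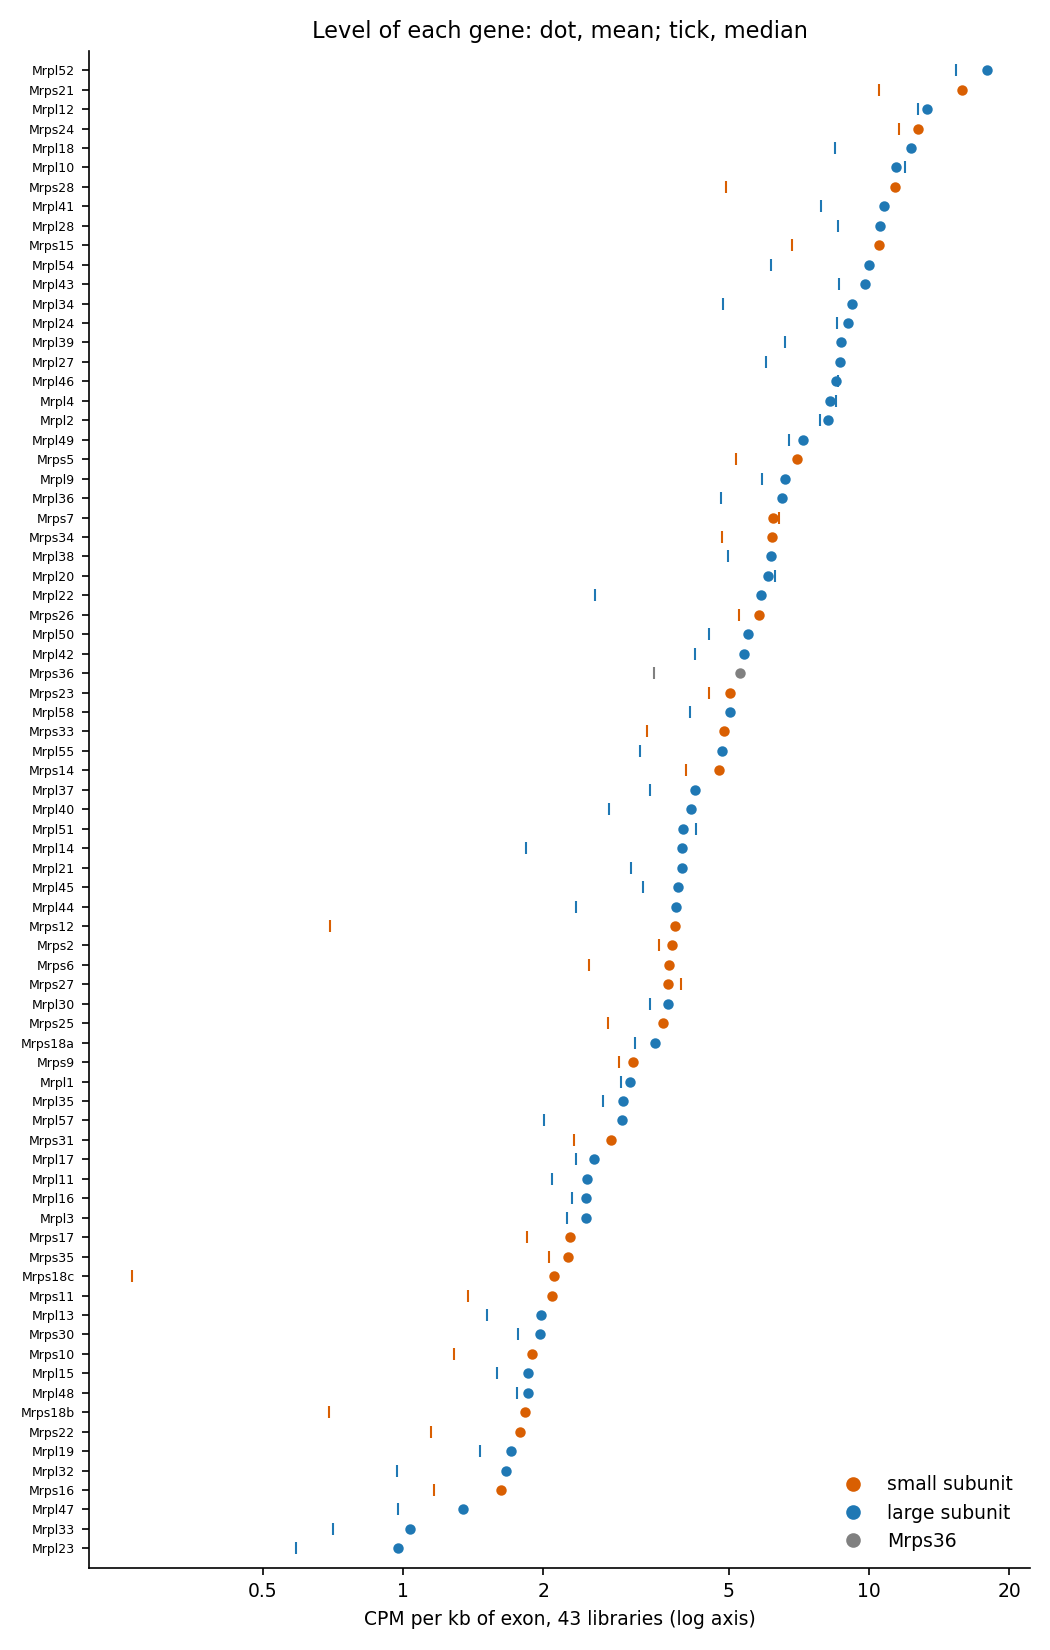
Level of the 77 members with any counts, in CPM per kb of merged exons on a log axis, with small- and large-subunit genes apart. The order depends on this choice of length. Dots give the mean and ticks the median over 43 libraries, from 17.9 CPM per kb for Mrpl52 down to 0.977 for Mrpl23.

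Before length correction Mrps5, a small-subunit protein at the mRNA entry of the ribosome, had the highest mean, 46.1 CPM, and was also the steadiest member in males. Its male values ran from 11.2 to 62.5 CPM, with an SD of 0.58 on the log2(CPM + 1) scale. Its highest value, 359 CPM, was in the WSB/EiJ female cortex library, which held 2731954 counts. Mrpl4 and Mrpl17 came next, with SD values of 0.81 and 0.93 on that scale. Among members of at least 10 CPM, the widest spread over males was that of Mrpl20, Mrpl35 and Mrpl37, with 1.65, 1.68 and 1.68. The median member had an SD of 1.44, and the median of 8180 protein-coding genes in the same range of mean CPM was 1.35.

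Many members dropped to 0 counts in single libraries. Only 7 members (Mrpl3, Mrpl4, Mrpl10, Mrpl13, Mrpl17, Mrps5 and Mrps26) were never at 0, and 17 were at 0 in 10 libraries or more. Mrps12 and Mrps18c, the counterparts of bacterial S12 and S18, were each at 0 in 20 libraries. The number of members at 0 was highest, 44, in the WSB/EiJ male hippocampus high library, which was also the shallowest with 1626534 counts. It was 35 in the C57BL/6J male hippocampus low library, at 3987720 counts. The 129S1/SvImJ female cortex low library stood apart from this relation, with 25 members at 0 at 27702669 counts, whereas the 5 high libraries of 129S1/SvImJ females had between 2 and 9. A count of 0 allows up to 3 counts, which was 1.84 CPM in the shallowest library, counting error only.

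**Figure D2:**
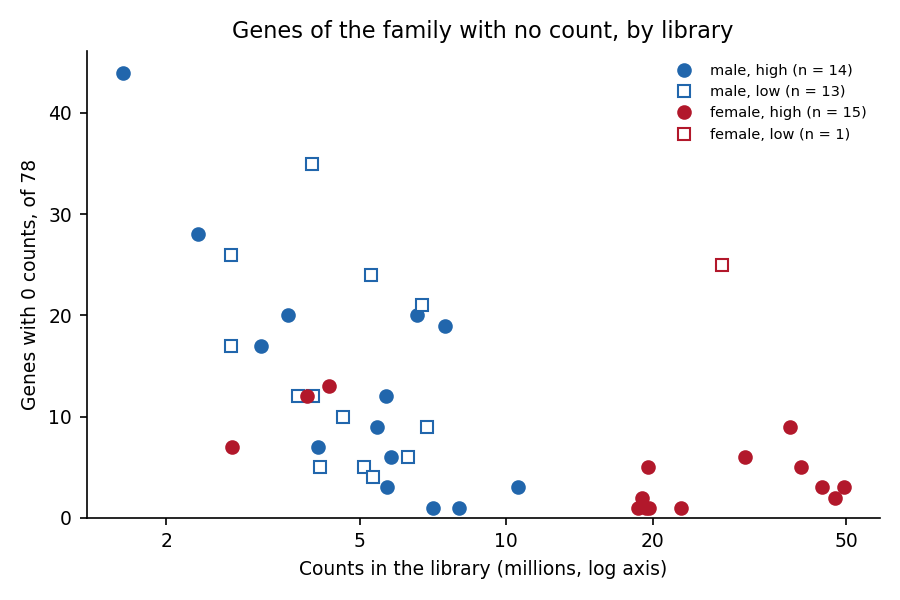
Number of members at 0 counts in each of the 43 libraries against the total counts of the library on a log axis, marked by sex and title tag. The shallowest library had 44 members at 0, and the 129S1/SvImJ female cortex low library had 25 at 27702669 counts.

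The title tag was compared first, in the 27 male libraries with strain and region in the model. The family as a sum was higher in the libraries titled high, at 870 ± 161 CPM (SD, n = 14, from 587 to 1084 CPM), than in those titled low, at 724 ± 130 CPM (n = 13, from 443 to 927 CPM). The ranges overlapped. The small-subunit sum had medians of 283 CPM (201 to 364 CPM) titled high and 232 CPM (107 to 305 CPM) titled low, and the large-subunit sum was 583 ± 112 CPM against 486 ± 84.7 CPM.

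Within the 13 male pairs of 1 strain and region, the family sum was higher in the library titled high in 11 pairs, with a median ratio of 1.17 and a range of 0.904 to 2.29. The exceptions were DBA/2J cortex, with 662 CPM titled high and 664 CPM titled low, and WSB/EiJ hippocampus, with 587 and 650 CPM. The widest gap was in C57BL/6J hippocampus, 1014 CPM against 443 CPM. The small-subunit sum was higher in all 13 pairs, with a median ratio of 1.12 and a range of 1.04 to 3.19. The large-subunit sum was higher in 9 pairs, with a median ratio of 1.11 and a range of 0.835 to 1.96. The median ratios of the subunits were thus close. With the family as a share of all counts the number was 13 pairs, and it was 12 pairs with DESeq2 size factors and 12 without rRNA-like and mitochondrial genes in the total. By comparison, the cytosolic ribosomal protein genes were higher in 7 of the 13 pairs.

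**Figure D3:**
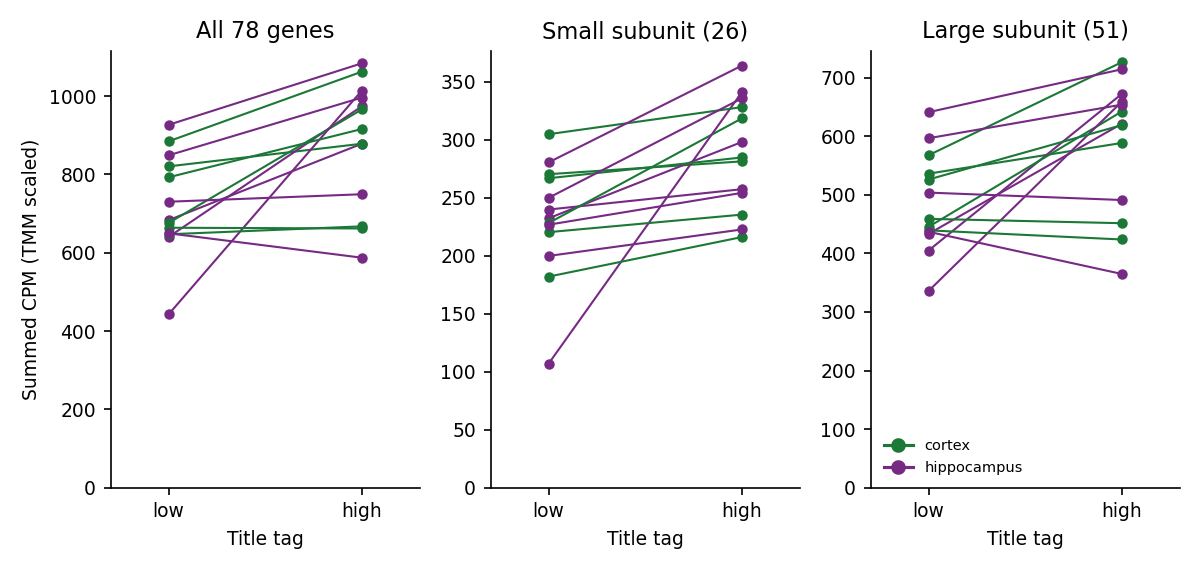
Summed CPM of all members, of the small subunit and of the large subunit in the 13 male pairs of the same strain and region, each line joining the library titled low to that titled high. The small-subunit sum was higher in the library titled high in 13 pairs, the large-subunit sum in 9 and the whole family in 11. Median ratios of high over low were 1.12 for the small and 1.11 for the large subunit.

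No single member was called. edgeR called 0 of 76 members at an adjusted p of 0.05, where 2.25% of all 24452 genes were called, and no member had an unadjusted p under 0.05. DESeq2 also called 0. The log2 fold change of high over low was above 0 for 53 of the 76 members with a median of 0.31, where the median of all genes was 0.01 and that of protein-coding genes of like CPM was 0.05. Counted over the pairs, 55 members were higher in more pairs than lower, 18 were lower in more, and none went 1 way in more than 10 of the 13 pairs. Mrpl16, Mrpl24, Mrpl51 and Mrps27 were higher in 10 pairs.

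Mrpl41, a large-subunit protein that is also known as a partner of p53, had the smallest p-value. Its 14 high libraries ran from 0 through a median of 6.16 to 44.3 CPM, and its 13 low libraries from 0 through 5.24 to 7.73 CPM. The high libraries thus reached further up while the low ends were the same, and the log2 fold change was 1.63 ± 0.86 (SE, edgeR adjusted p = 0.645). Mrps7, the counterpart of S7 in the head of the small subunit, had medians of 16.05 and 6.13 CPM and a log2 fold change of 1.07 ± 0.65 that was not called. Mrpl33 gave 1.69 ± 1.05. Against the family's direction, Mrpl27 had medians of 1.93 and 6.60 CPM and -1.32 ± 0.85, Mrpl9 gave -0.71 ± 0.50 and Mrpl23 -1.51 ± 1.33.

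Several sets of cell-type markers moved with the tag in the same pairs. Endothelial markers were higher in the library titled high in 11 of 13 pairs (17296 to 27465 CPM titled high, 16571 to 23056 CPM titled low). Neuronal markers were lower in 13 pairs (320 to 1044 CPM against 609 to 1483 CPM), astrocyte markers in 13 (1480 to 7274 CPM against 3163 to 19671 CPM), and pericyte and oligodendrocyte markers in 12 each. Smooth muscle markers were lower in 9 pairs. Microglial and fibroblast markers were instead higher in 8 pairs each, with median ratios of 1.10 and 1.28, and lower in 5. The part of these cells in the family's difference was not tested. For a difference of the tag's fold change between regions edgeR called 0 members and 0.0% of all genes, and 1 had an unadjusted p under 0.05, namely Mrpl46 with a difference of 2.57 ± 1.20 on the log2 scale. DESeq2 was not run on this term.

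Among strains, the male family sum was highest in CAST/EiJ and lowest in WSB/EiJ, the 2 recently wild-derived strains. The 4 CAST/EiJ males had 885, 927, 1062 and 1084 CPM, and the 4 WSB/EiJ males had 587, 647, 650 and 667 CPM. Between them lay NOD/ShiLtJ at 888 ± 87.8 CPM (SD, n = 4), A/J at 828 ± 140, C57BL/6J at 775 ± 267, 129S1/SvImJ at 768 ± 100 (n = 3) and DBA/2J at 701 ± 45.1 CPM. CAST/EiJ and WSB/EiJ did not overlap, whereas neighbours in this order overlapped. The cytosolic ribosomal protein genes were split in the same way, with 8776 to 10082 CPM in CAST/EiJ males and 4303 to 5912 CPM in WSB/EiJ males. The order of these strains was thus not particular to the family. The WSB/EiJ libraries were shallow, with 1626534 to 5331064 counts over both sexes, and the part of depth in their place was not tested. The pericyte markers also did not overlap between these strains, with a summed level of 2345 to 3184 CPM in the 4 CAST/EiJ males and 7679 to 9760 CPM in the 4 WSB/EiJ males, and their part in the order was not tested.

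**Figure D4:**
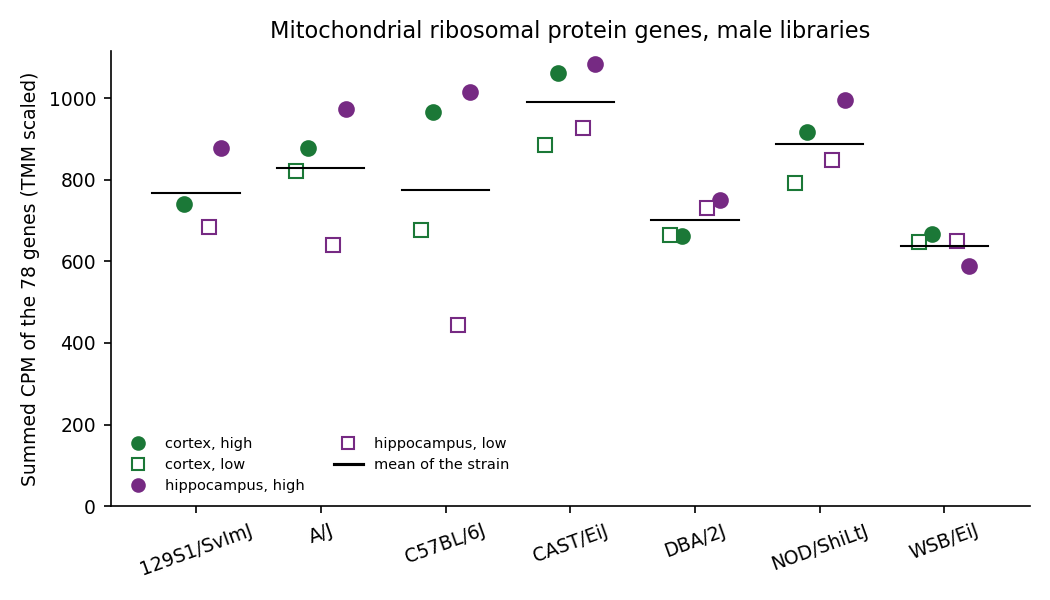
Summed CPM of the members in each of the 27 male libraries by strain. Filled circles are libraries titled high, open squares those titled low, green cortex, purple hippocampus, and lines the strain mean, from 989 CPM in CAST/EiJ to 638 CPM in WSB/EiJ.

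For any difference among the 7 strains, edgeR called 0 of 76 members, where 2.24% of all genes were called. Mrps24 alone had an unadjusted p under 0.05 (edgeR adjusted p = 0.259), and DESeq2 called it as its only member, with an adjusted p of 0.0271. Each strain was then set against the mean of the other 6, so the 7 contrasts below share libraries. edgeR called 0 members in each of them. Called over all genes were 0.18% for 129S1/SvImJ, 0.294% for A/J, 0.294% for C57BL/6J, 1.1% for CAST/EiJ, 0.311% for DBA/2J, 0.221% for NOD/ShiLtJ and 1.1% for WSB/EiJ. Members with an unadjusted p under 0.05 numbered 2, 3, 3, 3, 3, 0 and 8 in that order. The share of all genes at that unadjusted level is not given, here or for the other comparisons. Such counts of members are therefore not read as an excess in the family. DESeq2 called 3 members in C57BL/6J, 3 in DBA/2J and 6 in WSB/EiJ, and 0 in the other 4 strains. The shares above are those of edgeR. Over all genes DESeq2 called more than edgeR in each strain contrast, as the closing section gives. Its counts of members are therefore not read as a result about the family.

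In CAST/EiJ 58 of 76 members had a log2 fold change above 0, and the median was 0.51, against -0.12 for all genes and 0.17 for protein-coding genes of like CPM. In NOD/ShiLtJ it was 56 members and 0.47, against -0.10 and 0.16. In A/J 50 members were above 0 with a median of 0.22, and the counts were 38, 38 and 35 in C57BL/6J, DBA/2J and 129S1/SvImJ with medians of 0.00, 0.00 and -0.04. In WSB/EiJ 24 members were above 0 and the median was -0.33, against -0.51 for all genes and -0.11 for the protein-coding genes. The shift in WSB/EiJ therefore lay between those of the wider sets, and those in CAST/EiJ and NOD/ShiLtJ lay above both.

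**Figure D5:**
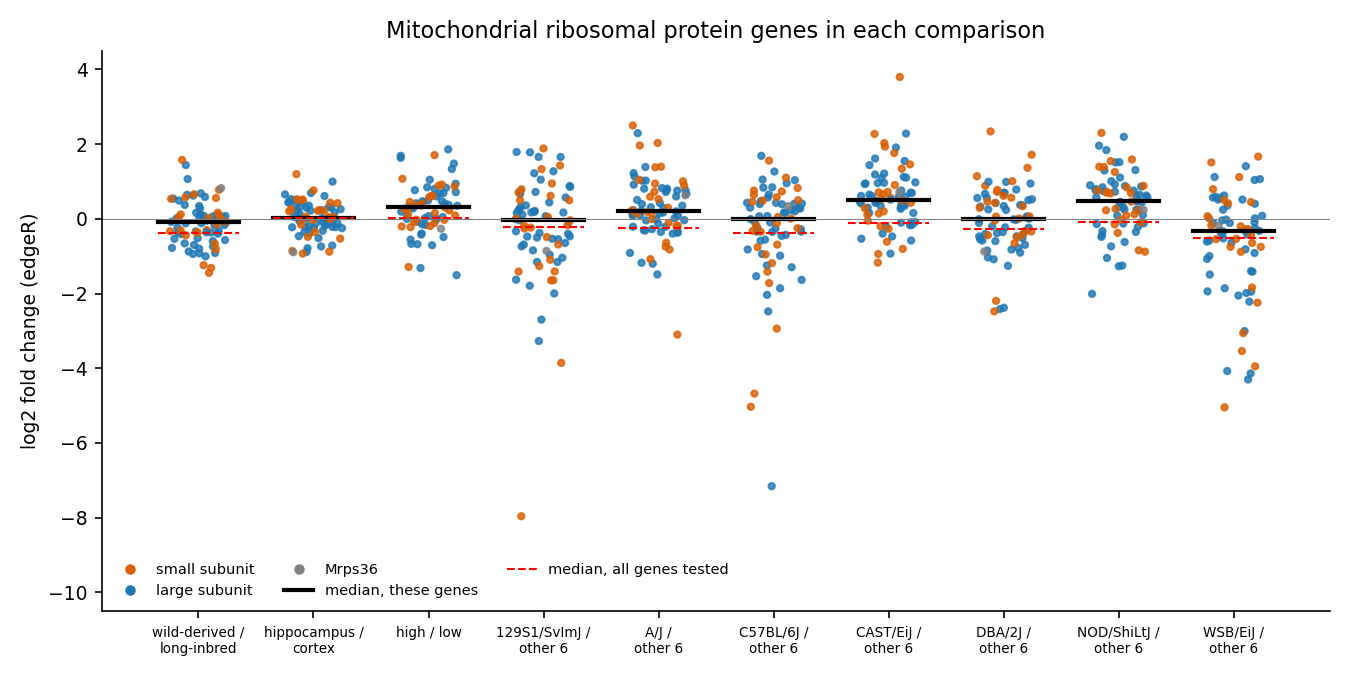
Log2 fold change of each member in the origin, region and tag comparisons and in the 7 strain contrasts, the black line giving the members' median and the red dashed line that of all genes tested. No member was called by edgeR, and the members' median was 0.51 in CAST/EiJ and -0.33 in WSB/EiJ. The lowest points of 129S1/SvImJ and C57BL/6J include genes at 0 in every male of the strain, whose fitted value is no bound.

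Mrps24, the counterpart of bacterial S3 near the mRNA path, varied most clearly between strains. The DBA/2J males had 0.508 and 0.255 CPM in cortex low and high, and 11.2 and 3.97 CPM in hippocampus low and high. The A/J males had 43.2 and 17.0 CPM in cortex low and high and 29.5 and 41.6 CPM in hippocampus. The 2 strains did not overlap, and the 4 CAST/EiJ males lay within 19.5 and 25.0 CPM. Against the other strains the log2 fold change was -2.48 ± 0.70 in DBA/2J (edgeR adjusted p = 0.147) and 1.38 ± 0.51 in A/J (edgeR adjusted p = 0.578). DESeq2 called the DBA/2J difference (-2.58, adjusted p = 0.000468). The DBA/2J female hippocampus library, outside this fit, had 25.3 CPM, so the low level was not shared by the only female library of that strain.

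Also in DBA/2J, Mrps9, the counterpart of S9, had 0, 2.07, 4.23 and 5.80 CPM in the 4 males, and a log2 fold change of -2.20 ± 0.77 (edgeR adjusted p = 0.414, DESeq2 adjusted p = 0.00481). Mrpl50 had 0, 1.21, 3.39 and 5.38 CPM, and -2.38 ± 0.96 (edgeR adjusted p = 0.677, DESeq2 adjusted p = 0.0422). Both genes were lowest in the cortex library titled high.

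In CAST/EiJ the member with the smallest p-value was Mrps26, a small-subunit protein with no bacterial counterpart. Its 4 males had 31.9, 32.8, 51.3 and 70.1 CPM, and its 2 females 44.5 and 48.7 CPM. Among the other male libraries the highest was 32.2 CPM, in 129S1/SvImJ hippocampus low, so the groups overlapped by that library alone. The log2 fold change was 1.46 ± 0.48 (edgeR adjusted p = 0.202), and DESeq2 did not call it. Mrps18c had 2.02, 2.24, 6.40 and 9.73 CPM in CAST/EiJ males and 0 in 17 of the other 23 male libraries, with a log2 fold change of 3.798 ± 1.83 (edgeR adjusted p = 0.777).

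In WSB/EiJ the 3 members with the smallest p-values downward belong to the large subunit. Mrpl36, the counterpart of the small zinc-binding L36, had 0, 0, 0.403 and 0.804 CPM in males and 0.244 and 1.73 CPM in females. Mrpl54, with no bacterial counterpart, had 0, 0, 0 and 1.21 CPM in males and 0.432 and 0.487 CPM in females. Mrpl46 had 0, 0, 0 and 4.83 CPM in males but 10.4 and 24.1 CPM in females. Mrpl46 was thus low in the males, and the sexes were not compared. Mrpl36 and Mrpl54 were low in all 6 WSB/EiJ libraries, where 3 counts correspond to between 0.603 and 1.84 CPM. In those libraries many members were at 3 counts or fewer, with 38 and 45 of the 78 in the females and 7, 29, 31 and 51 in the males.

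The log2 fold changes were -4.14 ± 1.41 for Mrpl36 (edgeR adjusted p = 0.201, DESeq2 adjusted p = 0.00551), -4.30 ± 1.55 for Mrpl54 (0.246 and 0.00938) and -3.00 ± 1.09 for Mrpl46 (0.252 and 0.00618). DESeq2 also called Mrpl40, Mrps11 and Mrps25 as lower in WSB/EiJ. In a fit of all 43 libraries with sex, region and tag as terms edgeR called Mrpl54 alone, with -4.43 (adjusted p = 0.0366). Upward, Mrpl49 gave 1.41 ± 0.65 (edgeR adjusted p = 0.548).

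Elsewhere a few members were at 0 in every male of a strain. Mrps12 was at 0 in the 3 males of 129S1/SvImJ, and Mrpl23 and Mrps18c were at 0 in the 4 males of C57BL/6J, whose libraries held 13342810 and 22406781 counts in sum. No fold is given for these. DESeq2 called the 2 in C57BL/6J, and with them Mrps33, for which edgeR gave -4.68 ± 2.02 (adjusted p = 0.653). In 129S1/SvImJ, Mrps18a had 15.1, 32.2 and 57.2 CPM and a log2 fold change of 1.79 ± 0.71 (edgeR adjusted p = 0.730). In NOD/ShiLtJ the smallest p-values were those of Mrpl27 at 1.84 ± 0.94 upward and Mrpl16 at -2.01 ± 1.04 downward.

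Set together by origin, the 12 wild-derived libraries had a family sum of 954 ± 313 CPM (SD) and the 31 long-inbred ones 974 ± 311 CPM, a difference far inside the spread. Within the males the sums were 814 ± 200 CPM (n = 8) and 793 ± 149 CPM (n = 19), and within the females 1235 ± 330 CPM (n = 4) and 1260 ± 285 CPM (n = 12). edgeR called 0 of 77 members, where 0.749% of all 29120 genes were called, and 6 members had an unadjusted p under 0.05. DESeq2 called 1, Mrps25. Above 0 were 33 members, and the median log2 fold change was -0.09, against -0.38 over all genes and -0.05 over protein-coding genes of like CPM.

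Mrps25, a small-subunit protein with no bacterial counterpart, had the smallest p-value. Its wild-derived libraries ran from 0 through a median of 9.26 to 40.7 CPM, and its long-inbred ones from 0 through 22.7 to 110 CPM. The ranges overlapped, with the long-inbred libraries reaching higher. The log2 fold change was -1.31 ± 0.46 (edgeR adjusted p = 0.284), and DESeq2 gave -1.44 with an adjusted p of 0.0449. Mrpl42 had medians of 10.5 and 18.6 CPM and -1.004 ± 0.41 (edgeR adjusted p = 0.462), and Mrpl58, a peptidyl-tRNA hydrolase built into the large subunit, gave -0.80 ± 0.46.

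Of the members with a fold change above 0, Mrps28 gave 1.58 ± 0.71, Mrps5 0.66 ± 0.30 and Mrpl32 1.44 ± 0.66 (edgeR adjusted p = 0.604, 0.626 and 0.635). The WSB/EiJ female cortex library had 144 CPM of Mrps28, where the median of the wild-derived libraries was 6.41 CPM, and 359 CPM of Mrps5, where it was 33.7 CPM. Without WSB/EiJ the value of Mrps5 was -0.30 and that of Mrpl32 -0.17.

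By region, the family sum was 975 ± 303 CPM (SD, n = 21) in cortex and 962 ± 319 CPM (n = 22) in hippocampus. Within the males it was 798 ± 136 CPM (n = 13) and 800 ± 188 CPM (n = 14), and within the females 1263 ± 280 CPM and 1245 ± 310 CPM (n = 8 each). In the 13 male pairs of the same strain and tag, hippocampus was higher in 10, with a median ratio of 1.05. edgeR called 0 of 77 members, where 0.0755% of all genes were called, DESeq2 called 0, and 1 member had an unadjusted p under 0.05. The median log2 fold change of hippocampus over cortex was 0.02 over the members and 0.03 over all genes, with 42 members above 0.

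That member was Mrps15, the counterpart of S15. It ran from 0 through a median of 16.4 to 109 CPM in cortex and from 0 through 10.2 to 42.5 CPM in hippocampus, and the regions overlapped over most of this range. Its log2 fold change was -0.93 ± 0.45 (edgeR adjusted p = 0.669). The 109 CPM came from the WSB/EiJ female cortex library, which held 2731954 counts. In the male pairs Mrps15 was higher in hippocampus in 7 and lower in 6, so they did not show the excess in cortex. In the other direction Mrpl16 had medians of 5.65 CPM in cortex and 9.87 CPM in hippocampus and gave 0.996 ± 0.52, with Mrps24 at 0.76 ± 0.41 and Mrpl24 at 0.65 ± 0.36. Mrpl16 was higher in hippocampus in 11 male pairs and lower in 2. For a difference of the region's fold change between origins edgeR called 0 members and 0.0% of all genes. On this term 5 members had an unadjusted p under 0.05, with Mrps28 at -4.00 ± 1.55 as the smallest, and DESeq2 was not run.

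Few genes of the rest of the mitochondrial translation machinery were called. Of the 5 mitoribosome subunits with other names, the 13 translation factors and the assembly and rRNA modification factors, edgeR called 0 in the origin, region, tag and strain comparisons, with at most 3 genes of a list at an unadjusted p under 0.05 in any of them, and DESeq2 was not read for these lists. Of the 17 mitochondrial tRNA synthetases it called Lars2, the leucyl enzyme, higher in wild-derived EC (3.55 ± 0.44 on the log2 scale, adjusted p = 3.48e-08), in hippocampus (2.78 ± 0.54, adjusted p = 0.00448) and in WSB/EiJ (3.89 ± 0.47). These 3 calls rested on the WSB/EiJ male hippocampus low library, where Lars2 was at 15260 CPM, against 19.9 to 396 CPM in the other 11 wild-derived libraries and 9.78 to 229 CPM in the 31 long-inbred ones. Without that library edgeR called none of them, with Lars2 at 0.47 ± 0.31 for origin (adjusted p = 0.766), 0.28 ± 0.28 for region (adjusted p = 0.745) and 0.58 ± 0.20 in WSB/EiJ (adjusted p = 0.236). The library also had the highest share of counts at rRNA-like genes (29.3%), whose part in the level of Lars2 was not tested. Of the nuclear regulators, Pprc1, a coactivator of the PGC-1 family, was called higher in wild-derived EC (1.36 ± 0.31, edgeR adjusted p = 0.00842), and it was called without that library too (1.42 ± 0.31). In WSB/EiJ males against the other strains Pprc1 was not called (0.66 ± 0.46, edgeR adjusted p = 0.989).

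Most of the mRNAs that the mitochondrial ribosome translates were called between strains. Of the 12 mitochondrially encoded mRNAs tested, edgeR called 8 for any difference among strains and 10 in CAST/EiJ. Lower there were mt-Nd1 (-2.001 ± 0.23), mt-Nd2, mt-Nd4, mt-Nd5, mt-Nd6 (-2.60 ± 0.32), mt-Co1 and mt-Cytb, which encode subunits of complexes I, IV and III. Higher were mt-Atp6 (5.35 ± 0.60), mt-Co3 and mt-Nd3. Of the 13 mRNAs 10 share at least 300 bases at 90% identity or more with an annotated transcript of a nuclear gene. Reads of those 10 could have been counted at either place. Only annotated transcripts were searched, and an mRNA under 300 bases could not meet the limit. That mt-Nd1 is not among the 10 therefore does not exclude a copy elsewhere in the nuclear genome. All reads were aligned to mm10, and the paper counts CAST/EiJ among the strains richest in single nucleotide polymorphisms. The part of sequence differences from mm10 in these values, mt-Nd1 included, and in those of the members was not tested.

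The summed level of these mRNAs was 3279 ± 1523 CPM (SD, n = 4) in CAST/EiJ males, whose family sum was the highest, and 13605 ± 4230 CPM (n = 4) in WSB/EiJ males, whose family sum was the lowest. In WSB/EiJ mt-Nd1, mt-Nd2 and mt-Nd6 were called higher (0.82 ± 0.19, 0.84 ± 0.20 and 0.92 ± 0.25). Without the male hippocampus low library none of these was called by edgeR, at 0.72 ± 0.21 for mt-Nd1 (adjusted p = 0.0967), 0.66 ± 0.22 for mt-Nd2 (adjusted p = 0.205) and 0.42 ± 0.26 for mt-Nd6 (adjusted p = 0.861). With the title tag edgeR called 0 of the 12, 7 of them had an unadjusted p under 0.05, and all 12 fold changes were below 0 with a median of -0.50. Their sum was lower in the library titled high in 12 of the 13 male pairs, the opposite of the family's direction in those pairs.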

How the data were processed

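RNA-seq of EC was made by the authors with rRNA depletion and a SMARTer stranded total RNA Pico kit. Reads were aligned to mm10. The submitters' processing notes name HISAT2 2.1.0, SAMtools 1.9 and featureCounts of Subread 1.4.4, and the strand setting of the counting was not given in the sources used here. The authors deposited raw counts per gene for 43 libraries, with no normalization, and 0 sample columns were left unused. The counts of the male libraries had a median total of 5257353.

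Gene IDs matched GENCODE M21 for 54409 of 54532 genes. Members and lists were chosen with earlier results of these data known. The main test was edgeR 4.0.16 (R 4.3.3), a two-sided quasi-likelihood test with TMM scaling and trended dispersion, on genes of at least 0.5 CPM in at least 1 library, with Benjamini-Hochberg adjustment over all genes tested and a threshold of 0.05. Origin and region were fitted on all libraries, and strain and title tag on males, with region, tag or strain as additive terms. Genes whose fitted counts ran far above their counts were dropped from the male fit (3077 genes, Mrpl34 of the members among them), leaving 76 members. DESeq2 1.42.0, other filters, scalings, covariates and subsets were the alternatives, and fits without a library reused the dispersion trend of the whole male fit. Fits of the related genes without the WSB/EiJ male hippocampus low library, added after the data were seen, estimated it anew. The scripts were tested on simulated data.

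A rule picked the 3 members of lowest p upward and the 3 downward in every comparison, and the 5 highest and 3 lowest per kb of exon. It also picked the 3 most and 3 least variable of those at 10 CPM or more in males. Of other mitochondrial lists it took the leading genes where any was called. For the strain contrasts the text describes only part of the members so picked. Left out are, among others, the downward members of CAST/EiJ (Mrpl42, Mrps10 and Mrps25) and of A/J (Mrpl51, Mrps5 and Mrpl17), none called by edgeR. Members outside the rule were named after their values were seen, among them Mrps27, Mrpl40, Mrpl34 and Mrpl53. CPM per kb used the length of merged exons. Shared stretches were hits of BLAST+ 2.17.0 of the longest protein-coding transcript at 90% identity or more over at least 300 bases. No protein sequences were used here.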

Additional observations from a re-analysis of the deposited data

Results flagged for a closer look

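In sets of 4 male libraries of a strain, the highest or lowest library lay apart from the other 3 by Dixon's criterion in 9 of 90 sets tested. Chance flags about 1 in 20 groups. That rate holds for groups that were not picked by their values. The genes here included Mrpl36, Mrpl54 and Mrpl46, which had the smallest downward p-values in WSB/EiJ, so no excess is read from the number flagged. In WSB/EiJ 5 sets were marked. The cortex low library was the highest for Mrps25 at 9.85 CPM, for Mrpl46 at 4.83 CPM, for Mrpl54 at 1.21 CPM and for Mrps28 at 0.603 CPM. For the last 3 of these the other libraries were all at 0, so that any value above 0 meets the criterion, and 0.603 CPM is 3 counts, the limit that a count of 0 allows. The cortex high library of WSB/EiJ was the highest for Mrpl41 at 44.3 CPM. In C57BL/6J the cortex high library was the highest for Mrpl41 at 25.5 CPM, with the other 3 at 0, and for Mrpl36 at 37.2 CPM. In NOD/ShiLtJ the hippocampus high library was the highest for Mrpl41 at 16.7 CPM. In A/J the cortex low library was the lowest for Mrpl36 at 2.82 CPM.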

How the results depend on the processing

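The number of members called was recomputed 375 times over 11 comparisons and 52 settings and equalled that of the main analysis in 366. With DESeq2 it was 1 for origin, 1 for any difference among strains, 3 for C57BL/6J, 3 for DBA/2J and 6 for WSB/EiJ. It was 1 for origin with edgeR's default dispersion (Mrps25) and 1 for WSB/EiJ in the fit of all 43 libraries (Mrpl54). Leaving out libraries gave 0 to 1 for DBA/2J, with Mrps24 called without the male hippocampus low library (-3.73, edgeR adjusted p = 0.0356), and 0 to 2 for WSB/EiJ, with Mrpl46 (adjusted p = 0.0266) and Mrps25 (adjusted p = 0.0340) called by edgeR without the male cortex low library. The motif CCGGAAG in place of CCGGAAGT lay in 34.7% of the member windows.

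Of 2028 recomputed gene results 13 had the other sign, none of them called. For origin, Mrps28 was -1.08 and Mrps5 -0.10 in hippocampus alone. Without libraries under 3000000 counts, Mrps5 was -0.23 and Mrpl32 -0.57, and without WSB/EiJ they were -0.30 and -0.17. Mrpl32 was -0.22 in DESeq2 and -0.023 in males alone. For region, Mrps5 was 0.056 without libraries under 3000000 counts. For the tag, Mrps7 was -0.070 in cortex alone, and Mrpl27 was 0.073 and Mrpl23 1.51 in hippocampus alone. Mrpl15 in 129S1/SvImJ ranged from -0.23 to 1.86 as libraries were left out, the former without the male hippocampus high library.

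The members' median for the tag lay between 0.16 and 0.49 over 39 alternatives, for CAST/EiJ between 0.31 and 0.60, for NOD/ShiLtJ between 0.17 and 0.59 and for WSB/EiJ between -0.76 and -0.13. The number of all genes called moved far more. For origin it was 218, with 395 in DESeq2, 6712 with the default dispersion, 7 with counts summed per strain, 40 in cortex, 68 in hippocampus, 44 in females and 123 in males. For region it was 22, with 61 in DESeq2, 8023 with the default dispersion, 60 with a block of strain, sex and tag, 7 in females and 11 without NOD/ShiLtJ. For the tag it was 550, with 1392 in DESeq2, 168 in cortex, 37 in hippocampus and 293 with no covariates. For any difference among strains it was 548, with 1289 in DESeq2 and 872 over all 43 libraries. DESeq2 called between 554 and 1624 genes in the strain contrasts, and WSB/EiJ fell from 270 to 17 without libraries under 3000000 counts, which leaves 1 WSB/EiJ male, assumed to vary like the other strains. No paired analysis was possible because the labels number only some female libraries of 129S1/SvImJ, the groups compared share fewer than 2 replicate numbers, and the mouse is not given. The male pairs and the region block match strain, region, sex and tag, not mice. The part of depth in the number of calls was not tested.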
